A study of Homo sapiens with 12 samples.

Results

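The genes described here are 39 genes of the lysosome and of autophagy, taken by gene symbol from a table of 78892 genes. They are transcription factors of the MiT/TFE family, lysosomal membrane proteins, lysosomal hydrolases, subunits of the proton pump, and genes that start and build the autophagosome. All 39 symbols matched a row of the table, and 36 had enough counts to be tested. Poly(A) RNA was sequenced from OCI-Ly7, an established human diffuse large B-cell lymphoma line, in 4 groups of 3 libraries. The groups were HDAC3 inhibitor with 5-azacitidine (called both drugs below), HDAC3 inhibitor alone, 5-azacitidine alone, and vehicle. 5-Azacitidine, a cytidine analogue that lowers DNA methylation, was given at 100 nM each day on days 0 to 4. The inhibitor of histone deacetylase 3, whose compound the labels do not name, was given at 15 µM on days 2 and 4, and cells were harvested on day 5. A group without a drug received 0 nM of 5-azacitidine or 0 µM of inhibitor on the same days. The labels name 1 cell line and do not say that libraries came from separate cultures. The p-values therefore measure only library-to-library spread, and that spread could be technical.

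Lysosomes are acidic organelles in which hydrolases break down proteins, lipids and sugars brought in by endocytosis or autophagy. In autophagy a membrane closes around cytoplasmic cargo and then fuses with the lysosome. The transcription factors TFEB and TFE3 are known to bind a short E-box-containing motif in the promoters of many lysosomal and autophagy genes, and are held in the cytoplasm by mTORC1 in nutrient-rich cells. In B cells the lysosomal compartment is also where antigen is processed for MHC class II.

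Levels are given as CPM, counts scaled to 1000000 per library. Library totals were 35947872 to 36337086 counts. The upper limit given to a gene with 0 counts, 3 counts, came to 0.0826 to 0.0835 CPM per library and covers counting error only. CPM is a share of each library's RNA and cannot tell fewer cells of a type from less RNA per cell. All 6 B-cell markers were over 1 CPM in every group, and summed to 3726 to 3785 CPM with both drugs, 3686 to 3735 CPM with the inhibitor, 2908 to 2987 CPM with 5-azacitidine and 2761 to 2851 CPM in vehicle. The 9 monocyte and macrophage markers summed to 2.64 to 3.41 CPM with both drugs, 1.41 to 2.02 CPM with the inhibitor, 0.139 to 0.390 CPM with 5-azacitidine and 0.332 to 0.527 CPM in vehicle. S100A8 and MARCO were at 0 in every library. Of the 3 tested, 2 were called higher than vehicle with both drugs and with the inhibitor, and 1 was not called. Their largest log2 changes were 6.64 and 5.47. With 5-azacitidine 0 were called. The 6 T- and NK-cell markers summed to 13.4 to 15.6 CPM with both drugs, 8.49 to 10.1 CPM with the inhibitor, 2.40 to 2.59 CPM with 5-azacitidine and 1.79 to 2.66 CPM in vehicle. The 5 plasma-cell markers summed to 691 to 706 CPM with both drugs, 679 to 710 CPM with the inhibitor, 351 to 411 CPM with 5-azacitidine and 337 to 364 CPM in vehicle. Mitochondrially encoded RNA took 12.5 to 15.3% of counts with both drugs, 12.1 to 13.0% with the inhibitor, 10.01 to 13.8% with 5-azacitidine and 9.59 to 10.5% in vehicle. Replicate 1 of 5-azacitidine and replicate 3 of both drugs stood apart on that measure. Over the tested genes, the chi-square of counts per degree of freedom was 27.5 and 24.8 for 5-azacitidine replicate 1 against replicates 2 and 3. Between replicates 2 and 3 it was 4.09. It was 9.96 to 16.2 between libraries of both drugs, 3.51 to 4.8 with the inhibitor and 4.92 to 6.74 in vehicle. The part of these differences, of the mitochondrial share and of the marker sums in the results below was not tested.

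With the inhibitor, alone or with 5-azacitidine, genes of this set changed in both directions, with more of them higher than lower. Between both drugs and vehicle, 17 of 36 genes were higher and 3 lower at an adjusted p under 0.05 in edgeR's quasi-likelihood test, with Benjamini-Hochberg adjustment over all 17869 genes tested. That is 47.2% higher and 8.33% lower, beside 29.6% and 27.5% of all tested genes, which gave 57.1% called in either direction. Of the 36 genes, 35 had a mean of at least 10 CPM, a level chosen after the values were seen. Among the 8662 genes at that level, 22.9% were higher and 46.7% lower with both drugs. With the inhibitor alone 13 of 36 were higher and 8 lower, beside 51.3% of all tested genes called, 26.4% higher and 24.9% lower; at 10 CPM or more the shares were 20.1% higher and 43.7% lower. The libraries of the groups compared did not overlap in 21 genes with both drugs and in 24 with the inhibitor, beside 60.3% and 59.6% of all tested genes. The split with the inhibitor alone depended on the filter: when genes needed 5 CPM in at least 3 libraries, it was 15 higher and 4 lower, and without inhibitor replicate 1 the number lower was 5. Under the 5 CPM filter the calls of GLA, MCOLN1, ULK1 and ATG9A with the inhibitor were lost (adjusted p = 0.0654, 0.121, 0.0983 and 0.169).

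Sizes were small for most genes. The median log2 change was 0.11 with both drugs and 0.01 with the inhibitor alone, beside 0.00789 and 0.000643 over all tested genes. With the filter of 5 CPM the set's median with the inhibitor was 0.07. Called changes of at least 1.5-fold were found in 6 of 36 genes with both drugs (16.7%) and 3 with the inhibitor alone (8.33%), every one of them higher. Over all tested genes 20.4% were called that much higher and 6.24% that much lower with both drugs, and 17.7% and 3.51% with the inhibitor. The shares in this set were not above those of all tested genes, which include genes under 10 CPM. Shares at 1.5-fold among genes of 10 CPM or more were not computed. 5-Azacitidine alone gave 5 higher and 0 lower in edgeR's test (12 at an unadjusted p under 0.05, 9 higher and 3 lower), beside 9.06% of all tested genes called, 4.31% higher and 4.75% lower. At 10 CPM or more these shares were 5.55% and 8.79%. All of these shares are at an adjusted p under 0.05. The share of all tested genes at an unadjusted p under 0.05 was not computed, so the 12 have no share beside them. DESeq2 gave 6 higher and 1 lower, and limma voom 6 and 0. The 5-azacitidine and vehicle libraries did not overlap in 13 of the 36 genes, beside 24.5% of all tested genes. Leaving out a single library changed the 5 higher to 2 without vehicle replicate 2, and to 3 without vehicle replicate 1, vehicle replicate 3, 5-azacitidine replicate 2 or 5-azacitidine replicate 3.

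**Figure D1:**
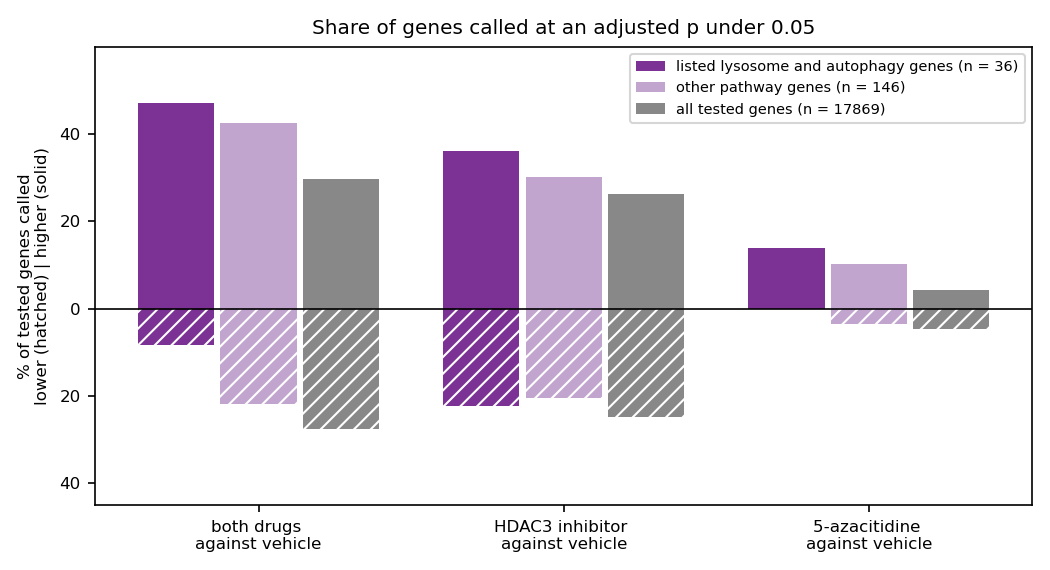
Percent of tested genes called higher (solid bars, upward) or lower (hatched bars, downward) at an adjusted p under 0.05 in each comparison with vehicle, for the 36 tested lysosome and autophagy genes, for 146 other genes of the pathway and for all 17869 tested genes. With both drugs against vehicle the listed genes were 47.2% higher and 8.33% lower, and all genes 29.6% higher and 27.5% lower.

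Among the MiT/TFE transcription factors, TFE3 was higher with the inhibitor and TFEB was not called in any comparison. TFE3 had 59.9, 54.0 and 56.3 CPM with both drugs and 51.6, 49.1 and 52.5 CPM with the inhibitor. It had 38.4, 41.4 and 43.6 CPM with 5-azacitidine and 44.7, 40.6 and 43.5 CPM in vehicle. Every library that received the inhibitor lay above every library that did not. The log2 change was 0.41 ± 0.06 (SE; adjusted p = 2.11e-06) with both drugs against vehicle, and 0.25 ± 0.06 (adjusted p = 0.0013) with the inhibitor against vehicle, both from edgeR's quasi-likelihood test. TFEB averaged 81.1 ± 8.86 CPM with both drugs, 75.8 ± 2.91 with the inhibitor, 79.3 ± 2.50 with 5-azacitidine and 79.5 ± 5.32 in vehicle (SD, n = 3 each), and its 95% interval for both drugs against vehicle was -0.12 to 0.18 on the log2 scale. MITF, the third factor, had 0 counts in all 12 libraries. RNA levels of these factors say nothing of their activity, which depends largely on their place in the cell.

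The motif known for these factors was looked up in the 250 bases before the start of each gene. Starts came from the RefSeq promoter table of build GRCh38.p14, which held 30 of the 39 genes. For CD63 and GAA that start lies inside the gene as counted here. The letters searched were CACGTG, and the longer TCACGTGA that contains it; both read the same on either strand. CACGTG was in 7 of the 30 windows (23.3%), beside 6.49% of 27305 promoters in the table and 8.83% of 11182 promoters of tested genes. TCACGTGA was in 5 of the 30 (16.7%), beside 0.89% and 1.68%. The 7 genes were ATP6V0D1, CD63, MCOLN1, GAA, CTSA, CTSD and LAMP1. With both drugs 2 of them were higher and 1 lower. Of the 20 tested genes whose window held no such letters 10 were higher and 0 lower. Over all tested genes 29.6% were higher and 27.5% lower. Other tested genes of the set had no window, among them PSAP and CTSB (higher) and UVRAG and ATP6V1B2 (lower). Whether the motif went with the changes was not tested. Windows are shown for the genes with the motif that had the smallest adjusted p for both drugs against vehicle. Of these genes, ATP6V0D1 and CD63 were higher, MCOLN1 was lower and GAA was not called. CTSA, CTSD and LAMP1, whose windows are not shown, were not called. The windows below carry the same letters, in capitals. They lie at chr16:67481199-67481228 (minus strand), chr12:55729172-55729201 (minus strand), chr19:7522598-7522623 (plus strand) and chr17:80101538-80101567 (plus strand), and their capitals begin 59, 180, 14 and 31 bases before the start.
ATP6V0D1: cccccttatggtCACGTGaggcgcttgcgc
CD63: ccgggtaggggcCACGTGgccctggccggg
MCOLN1: gggctaccgggtCACGTGaccgaggc
GAA: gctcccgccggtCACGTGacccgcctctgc
A match of letters is a description and no evidence that a factor was bound.

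The largest share of the set's RNA came from PSAP, at chr10:71816298-71851251 (minus strand, GRCh38), whose precursor is cut into the 4 saposins that help lysosomal enzymes break down sphingolipids. It had 1466, 1352 and 1352 CPM with both drugs, 1218, 1210 and 1216 CPM with the inhibitor, 537, 555 and 564 CPM with 5-azacitidine, and 494, 496 and 508 CPM in vehicle. No group overlapped another, and every library that received the inhibitor stood far above every one that did not. The log2 change was 1.48 ± 0.05 (adjusted p = 1.23e-19) with both drugs, 1.28 ± 0.05 (adjusted p = 4.56e-18) with the inhibitor and 0.14 ± 0.05 (adjusted p = 0.0547) with 5-azacitidine, each against vehicle by edgeR. Per kilobase of exon PSAP stood at 160 CPM in vehicle, beside 44.8 for CD63 and 26.7 for GABARAPL2, the next in order. PSAP made up 38.9 ± 0.831% of the summed CPM of the 39 genes with both drugs, 37.2 ± 0.148% with the inhibitor, 22.1 ± 0.177% with 5-azacitidine and 21.1 ± 0.196% in vehicle. The sum of the 39 genes was 3575 ± 94.8 CPM with both drugs and 2366 ± 13.3 CPM in vehicle; without PSAP it was 2185 ± 33.1 CPM with both drugs and 1867 ± 6.26 CPM in vehicle (SD, n = 3 each).

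Of the other lysosomal enzymes, LIPA, the acid lipase that frees cholesterol from lipoprotein esters, was higher with both drugs (log2 change 0.66 ± 0.06, adjusted p = 1.69e-10) and with the inhibitor (0.44 ± 0.06, adjusted p = 3.37e-07). It had 69.7, 66.1 and 71.3 CPM with both drugs, 61.8, 56.7 and 60.9 with the inhibitor, 42.1, 42.9 and 43.0 with 5-azacitidine, and 44.1, 45.2 and 42.2 in vehicle. HEXA, a subunit of the enzyme that trims gangliosides, was 1.18-fold vehicle with both drugs and with the inhibitor. GLA, which removes galactose from glycolipids, was lower with the inhibitor (log2 change -0.20 ± 0.06, adjusted p = 0.00802) and higher with 5-azacitidine (0.22 ± 0.06, adjusted p = 0.0218), so that its mean was 45.4 ± 1.79 CPM with both drugs, 40.2 ± 2.56 with the inhibitor, 54.0 ± 2.00 with 5-azacitidine and 46.1 ± 0.326 in vehicle. GAA, the glycogen-degrading glucosidase, passed the test only between both drugs and 5-azacitidine (0.30 ± 0.07, adjusted p = 0.000495). GUSB and ASAH1 were not called in any comparison with vehicle, with log2 changes of 0.02 and -0.06 for both drugs. In this group of 7, 3 genes were higher and 0 lower with both drugs, and 3 higher and 1 lower with the inhibitor. Shares of all tested genes were 29.6% higher and 27.5% lower with both drugs, and 26.4% and 24.9% with the inhibitor. The call of GLA with 5-azacitidine was lost without vehicle replicate 1, vehicle replicate 2, vehicle replicate 3 or 5-azacitidine replicate 2 (adjusted p = 0.0722, 0.0763, 0.0583 and 0.0942), and with the inhibitor without inhibitor replicate 3 (adjusted p = 0.0639). The call of HEXA with both drugs was lost without vehicle replicate 2 (adjusted p = 0.0765) or both-drugs replicate 3 (0.0779), and that with the inhibitor without vehicle replicate 1 (0.0532), vehicle replicate 2 (0.0887) or inhibitor replicate 2 (0.0896).

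Of the 7 tested lysosomal proteases, 4 were higher both with both drugs and with the inhibitor: the cathepsins CTSZ, CTSH and CTSB, and TPP1. None was lower in any comparison with vehicle. Among all tested genes 29.6% were higher and 27.5% lower with both drugs, and 26.4% and 24.9% with the inhibitor. CTSZ, a carboxypeptidase, had 259, 246 and 254 CPM with both drugs, 232, 231 and 235 CPM with the inhibitor, 203, 194 and 196 CPM with 5-azacitidine, and 161, 168 and 161 CPM in vehicle. The 4 groups stood in that order without overlap, and the log2 change was 0.64 ± 0.05 with both drugs, 0.50 ± 0.05 with the inhibitor and 0.27 ± 0.05 with 5-azacitidine (adjusted p = 2.17e-11, 2.93e-09 and 0.000619, edgeR against vehicle). CTSH, an aminopeptidase, averaged 30.1 ± 0.828 CPM with both drugs, 21.3 ± 1.31 with the inhibitor, 22.2 ± 1.05 with 5-azacitidine and 18.0 ± 1.44 in vehicle. Its log2 change was 0.75 ± 0.08 with both drugs, against 0.24 ± 0.08 and 0.29 ± 0.08 with either drug alone (adjusted p = 3.4e-09, 0.0115 and 0.0141, edgeR). TPP1, a tripeptidyl peptidase, averaged 52.2 ± 3.56 CPM with both drugs, 48.0 ± 2.75 with the inhibitor, 45.3 ± 5.13 with 5-azacitidine and 40.8 ± 0.729 in vehicle.

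CTSB, a cysteine protease, was low, at 2.35 ± 0.569 CPM with both drugs, 1.85 ± 0.217 with the inhibitor, 1.10 ± 0.0379 with 5-azacitidine and 1.07 ± 0.513 in vehicle; its log2 change with both drugs was 1.14 ± 0.26 (adjusted p = 0.00041). CTSL had 0 counts in every library. CTSD, the aspartic protease, CTSC, the dipeptidyl peptidase that activates granule proteases, and CTSA, which protects galactosidase and neuraminidase, were not called in any comparison, with log2 changes for both drugs of 0.07, -0.09 and -0.08. CTSZ shares 31.7% of its exon length with other genes, NELFCD among them, and CTSD shares 48.0%. Reads that overlapped more than 1 gene were not counted. The call of CTSH with the inhibitor was lost without vehicle replicate 2 or inhibitor replicate 1 (adjusted p = 0.114 and 0.0877), and with 5-azacitidine without vehicle replicate 2 or 5-azacitidine replicate 3 (0.113 and 0.058). That of CTSB with the inhibitor was lost without vehicle replicate 1 or inhibitor replicate 3 (0.121 and 0.0604), and that of TPP1 without vehicle replicate 2 or inhibitor replicate 2 (0.0583 and 0.1).

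At the lysosomal membrane CD63, a tetraspanin of late endosomes, was higher with the inhibitor, and LAMP1, the most used marker of lysosomes, was not called in any comparison. CD63 had 150, 165 and 159 CPM with both drugs, 145, 143 and 156 CPM with the inhibitor, 103, 109 and 116 CPM with 5-azacitidine, and 104, 102 and 119 CPM in vehicle. Its log2 change was 0.55 ± 0.06 with both drugs and 0.44 ± 0.06 with the inhibitor (adjusted p = 4.31e-08 and 1.89e-06), and 0.00 with 5-azacitidine. LAMP2, a structural glycoprotein needed for autophagosome fusion, was higher with both drugs (0.27 ± 0.06, adjusted p = 0.000166), with the inhibitor (0.18 ± 0.06, adjusted p = 0.00757) and with 5-azacitidine (0.19 ± 0.06, adjusted p = 0.0306). MCOLN1, the calcium channel of the lysosome, was lower with both drugs (-0.33 ± 0.09, adjusted p = 0.00369) and with the inhibitor (-0.25 ± 0.09, adjusted p = 0.0263). SCARB2, the receptor that delivers glucocerebrosidase, was seen only as 0.0554 CPM in vehicle replicate 2 and 0.0276 CPM in both drugs replicate 3, so it was not tested. The call of LAMP2 with 5-azacitidine was lost without vehicle replicate 1, 2 or 3 (adjusted p = 0.0612, 0.0563 and 0.155) or without 5-azacitidine replicate 2 or 3 (0.104 and 0.117), and that with the inhibitor without vehicle replicate 3 (0.057). The call of MCOLN1 with the inhibitor was lost without vehicle replicate 1 or 2 (0.062 and 0.0543) or inhibitor replicate 1 or 2 (0.134 and 0.0876).

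**Figure D2:**
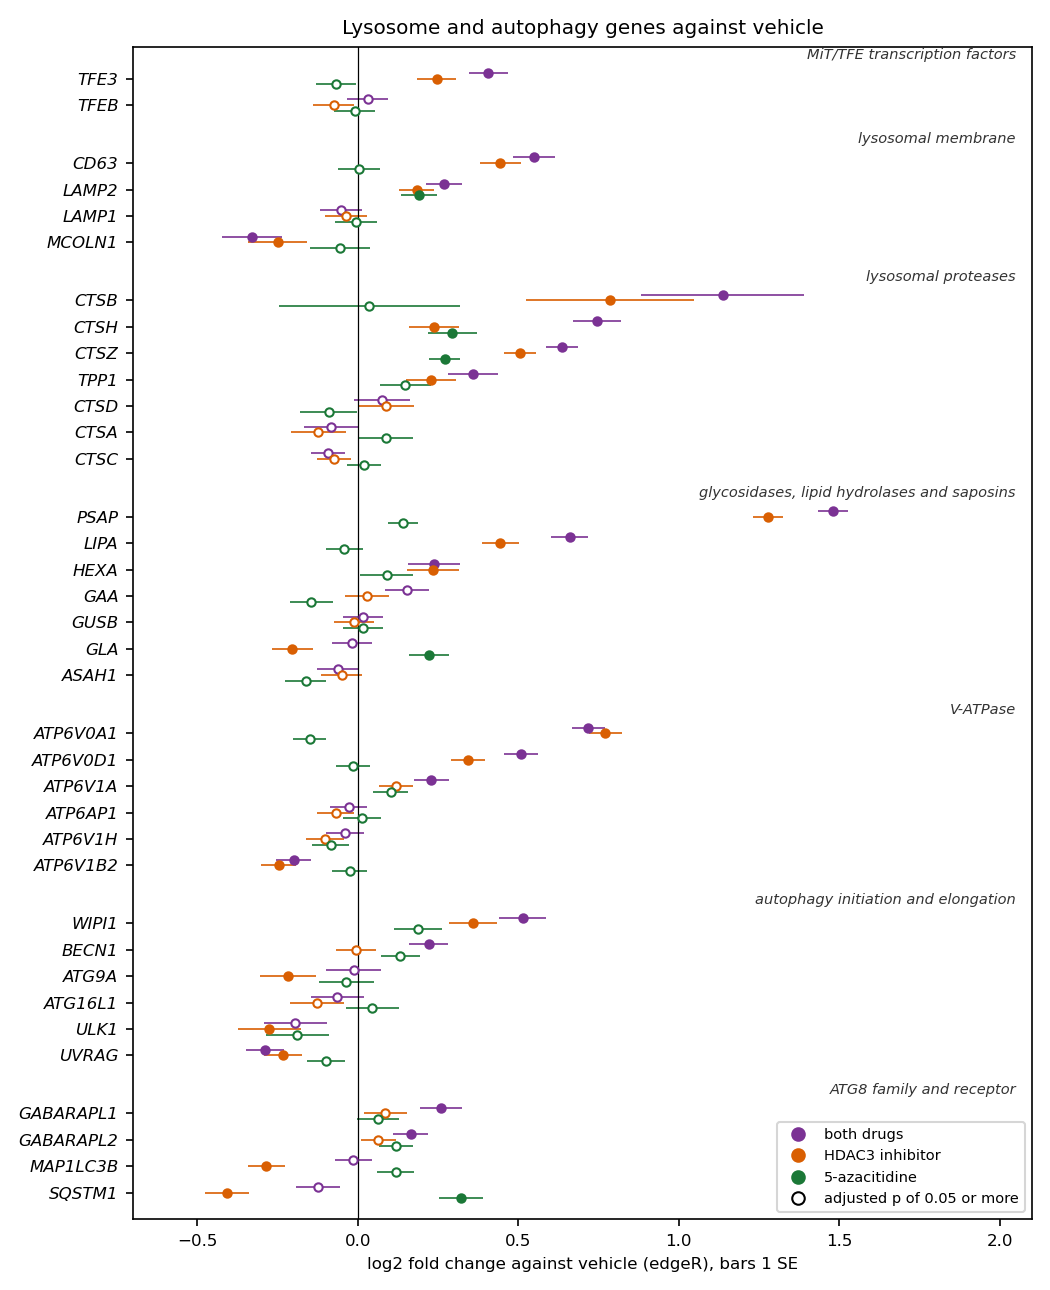
Log2 fold change against vehicle for the 36 tested genes, grouped by role, with both drugs, the inhibitor and 5-azacitidine; bars are 1 SE and filled points were called at an adjusted p under 0.05. PSAP stood highest, at 1.48 with both drugs and 1.28 with the inhibitor, and the lowest value was that of SQSTM1 with the inhibitor, at -0.41.

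Genes of the proton pump that acidifies lysosomes moved in both directions. ATP6V0A1, a membrane subunit of the V-ATPase, had 149, 141 and 156 CPM with both drugs, 156, 156 and 155 CPM with the inhibitor, 79.2, 81.0 and 86.1 CPM with 5-azacitidine, and 89.9, 93.4 and 89.1 CPM in vehicle. Its log2 change was 0.72 ± 0.05 with both drugs and 0.77 ± 0.05 with the inhibitor (adjusted p = 3.6e-12 and 1.38e-12). ATP6V0D1, a linker between the membrane and the rotor, averaged 113.53 ± 1.10 CPM with both drugs, 102 ± 2.42 with the inhibitor, 79.4 ± 1.94 with 5-azacitidine and 80.003 ± 1.48 in vehicle. Its log2 change was 0.51 ± 0.05 with both drugs and 0.34 ± 0.05 with the inhibitor (adjusted p = 4.65e-09 and 4.94e-06). ATP6V1B2, a catalytic-sector subunit, was lower with both drugs (-0.20 ± 0.05, adjusted p = 0.00249) and with the inhibitor (-0.25 ± 0.05, adjusted p = 0.000413). ATP6V1A, the catalytic subunit, was higher with both drugs (0.23 ± 0.05, adjusted p = 0.000645) and not called with the inhibitor, while ATP6V1H and ATP6AP1 were not called in any comparison. Of these 6 genes, 3 were higher and 1 lower with both drugs, and 2 higher and 1 lower with the inhibitor. All tested genes gave 29.6% higher and 27.5% lower with both drugs, and 26.4% and 24.9% with the inhibitor.

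Of the 6 genes that start and extend the autophagosome, 1 was higher and 3 lower with the inhibitor, and 2 were higher and 1 lower with both drugs. Over all tested genes 26.4% were higher and 24.9% lower with the inhibitor, and 29.6% and 27.5% with both drugs. At 10 CPM or more the shares lower were 43.7% and 46.7%, and those higher 20.1% and 22.9%. Of the 6, WIPI1 was the one higher with the inhibitor (0.36 ± 0.07, adjusted p = 0.000237), and it was also higher with both drugs (0.51 ± 0.07, adjusted p = 1.43e-06). WIPI1 shares 28.1% of its exon length with other genes, ARSG among them. It averaged 29.7 ± 2.60 CPM with both drugs, 26.9 ± 1.16 with the inhibitor, 23.9 ± 0.289 with 5-azacitidine and 20.9 ± 0.492 in vehicle. UVRAG, a Beclin 1 partner, was lower with both drugs (-0.29 ± 0.06, adjusted p = 0.000157) and with the inhibitor (-0.23 ± 0.06, adjusted p = 0.00162). ULK1, the kinase that starts autophagy, and ATG9A, the scramblase that supplies membrane, were lower with the inhibitor alone (-0.28 ± 0.10, adjusted p = 0.0215, and -0.22 ± 0.09, adjusted p = 0.0393) and not called with both drugs. BECN1, the core of the lipid kinase complex, was higher with both drugs (0.22 ± 0.06, adjusted p = 0.00301), at 50.8, 51.7 and 53.0 CPM against 44.8, 43.6 and 45.5 CPM in vehicle, and not called with either drug alone. ATG16L1 was not called in any comparison. The call of ULK1 with the inhibitor was lost without vehicle replicate 3 (adjusted p = 0.105), inhibitor replicate 1 (0.0773) or inhibitor replicate 2 (0.0619), and that of ATG9A, which shares 38.8% of its exon length with other genes, without vehicle replicate 1 or 3 (0.0529 and 0.144) or inhibitor replicate 1 or 3 (0.0626 and 0.176), and by DESeq2 (0.0596).

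SQSTM1, the cargo receptor p62, and MAP1LC3B, the ATG8 protein most used to follow autophagy, were lower with the inhibitor than in vehicle, and higher with both drugs than with the inhibitor. SQSTM1 had 50.6, 47.6 and 43.8 CPM with both drugs, 39.1, 39.3 and 38.9 CPM with the inhibitor, 61.0, 66.1 and 67.5 CPM with 5-azacitidine, and 56.8, 45.8 and 52.5 CPM in vehicle. The 5-azacitidine libraries lay above all others and the inhibitor libraries below all others. Its log2 change was -0.41 ± 0.07 with the inhibitor and 0.32 ± 0.07 with 5-azacitidine (adjusted p = 1.87e-05 and 0.00249, edgeR), and -0.12 with both drugs (adjusted p = 0.129). SQSTM1 shares 38.3% of its exon length with other genes, MRNIP among them. MAP1LC3B averaged 49.7 ± 1.85 CPM with both drugs, 41.4 ± 0.918 with the inhibitor, 54.7 ± 0.973 with 5-azacitidine and 50.3 ± 2.14 in vehicle (SD, n = 3 each), a log2 change of -0.28 ± 0.06 with the inhibitor (adjusted p = 0.00019). GABARAPL1 and GABARAPL2, ATG8 proteins of the other subfamily, were higher with both drugs (0.26 ± 0.07 and 0.16 ± 0.05, adjusted p = 0.00141 and 0.0112); the call of GABARAPL2 was lost without vehicle replicate 1 (adjusted p = 0.0788).

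**Figure D3:**
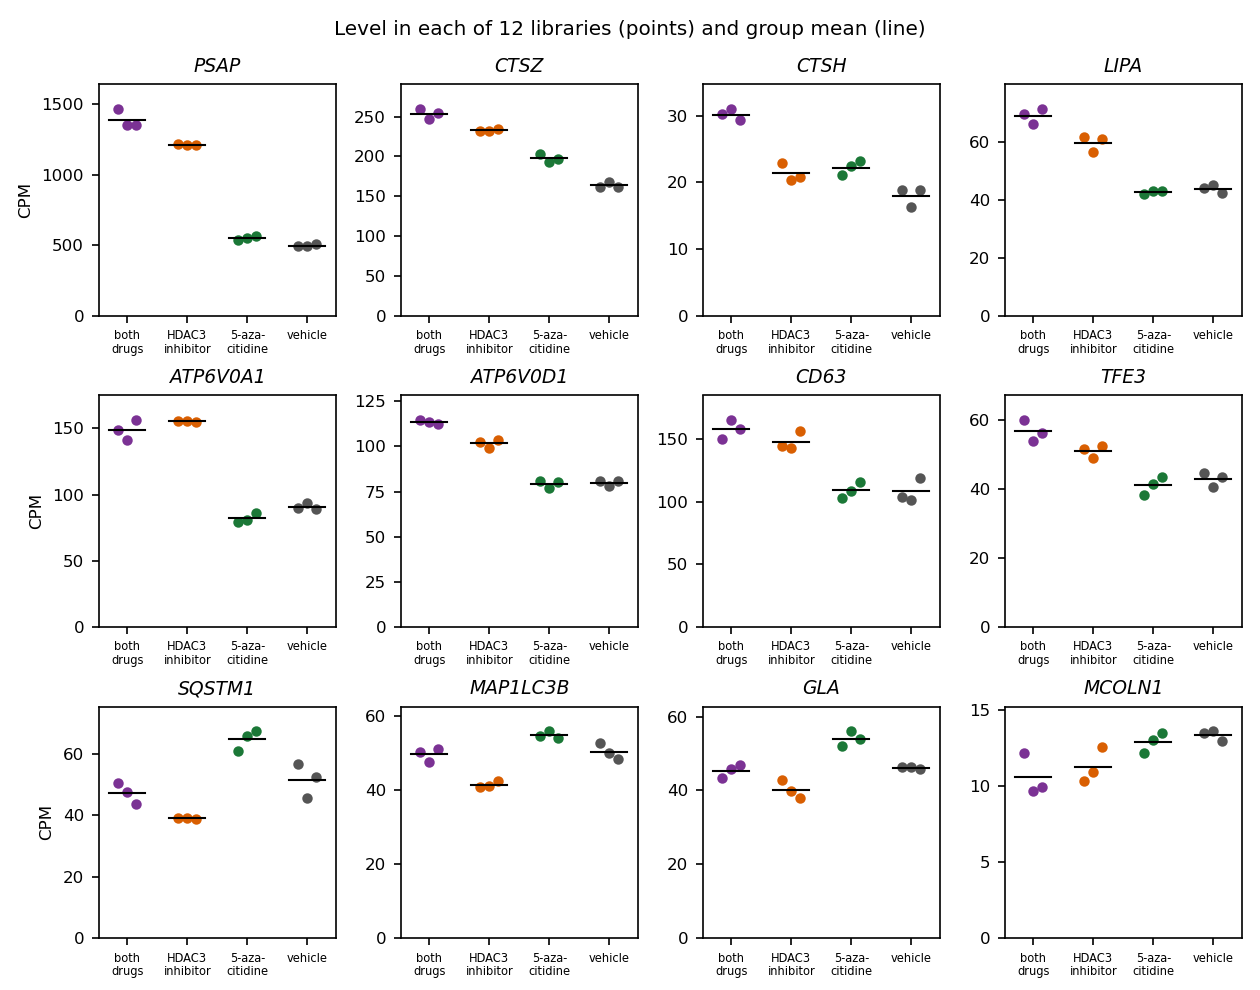
CPM of 12 genes in each of the 12 libraries, with both drugs, inhibitor, 5-azacitidine and vehicle from left to right; lines are group means. PSAP, LIPA, ATP6V0A1, ATP6V0D1, CD63 and TFE3 stood higher in both groups that received the inhibitor, and SQSTM1 lay lowest with the inhibitor alone and highest with 5-azacitidine alone.

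Adding 5-azacitidine to the inhibitor raised 7 of the 36 genes and lowered 0 in edgeR's test (13 at an unadjusted p under 0.05, all higher; DESeq2 and limma voom also gave 7 and 0), beside 7.34% of all tested genes called, 4.51% higher and 2.83% lower. At 10 CPM or more these shares were 5.22% and 5.17%. All of these shares are at an adjusted p under 0.05. The share of all tested genes at an unadjusted p under 0.05 was not computed, so the 13 have no share beside them. The libraries did not overlap in 15 of the 36 genes, beside 24.8% of all tested genes. The 7 were CTSH (0.51 ± 0.07, adjusted p = 8.26e-05), MAP1LC3B (0.27 ± 0.06, adjusted p = 0.00422), PSAP (0.20 ± 0.05, adjusted p = 0.00609), SQSTM1 (0.28 ± 0.07, adjusted p = 0.0111), LIPA (0.22 ± 0.06, adjusted p = 0.0169), BECN1 (0.23 ± 0.06, adjusted p = 0.0209) and ATP6V0D1 (0.17 ± 0.05, adjusted p = 0.0494). The median change of the 36 genes was 0.11 on the log2 scale, beside 0.0125 over all tested genes. The number fell to 4 without inhibitor replicate 2 or both-drugs replicate 3 and to 3 without inhibitor replicate 3. The call of ATP6V0D1 was lost under 18 of 22 alternatives. Those of BECN1 and LIPA were lost without inhibitor replicate 2 (adjusted p = 0.13 and 0.127), inhibitor replicate 3 (0.069 and 0.053) or both-drugs replicate 3 (0.093 and 0.0943), and that of SQSTM1 was lost without inhibitor replicate 3 (0.053) or both-drugs replicate 1 (0.0592).

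Adding the inhibitor to 5-azacitidine gave 14 higher and 5 lower genes, beside 53.8% of all tested genes called, 28.7% higher and 25.1% lower, and 23.9% higher and 42.6% lower at 10 CPM or more. The libraries did not overlap in 21 genes, beside 55.9% of all tested genes. Sizes for PSAP (1.34 ± 0.05), ATP6V0A1 (0.87 ± 0.05), LIPA (0.70 ± 0.06), CD63 (0.54 ± 0.06), ATP6V0D1 (0.52 ± 0.05) and TFE3 (0.47 ± 0.06) were the larger of the changes with an SE under 0.1. The 5 lower genes were SQSTM1 (-0.44 ± 0.07, adjusted p = 3.61e-06), MCOLN1, GLA, ATP6V1B2 and UVRAG. This split was 18 higher and 2 lower when genes needed 5 CPM in at least 3 libraries, where the calls of ATP6V1B2, MCOLN1 and UVRAG were lost (adjusted p = 0.0824, 0.071 and 0.0715), and the number lower was 8 without 5-azacitidine replicate 3. The call of MCOLN1 was lost without both-drugs replicate 2 or 3 (adjusted p = 0.0652 and 0.0586), and that of ATP6V1A (0.13 ± 0.05, adjusted p = 0.048) was lost under 16 of 22 alternatives. The comparisons with vehicle share its libraries, and those of both drugs with a single drug share the combination libraries, so their values are not independent.

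No gene of the set had a called interaction, that is, a change with 5-azacitidine that differed with and without the inhibitor: 0 of 36 in edgeR's test, 0 by DESeq2 and by limma voom, and 4 at an unadjusted p under 0.05, all higher. Over all tested genes 0.716% were called at an adjusted p under 0.05, 0.263% higher and 0.453% lower. The share of all tested genes at an unadjusted p under 0.05 was not computed, so the 4 have no share beside them. The smallest adjusted p was that of LIPA, 0.139, with an interaction of 0.26 ± 0.08 and a 95% interval of 0.0719 to 0.446 on the log2 scale. CTSH had the largest rise with both drugs over the inhibitor, and its interaction was 0.21 on the log2 scale. The count of 0 does not show that the effects of the drugs were additive.

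**Figure D4:**
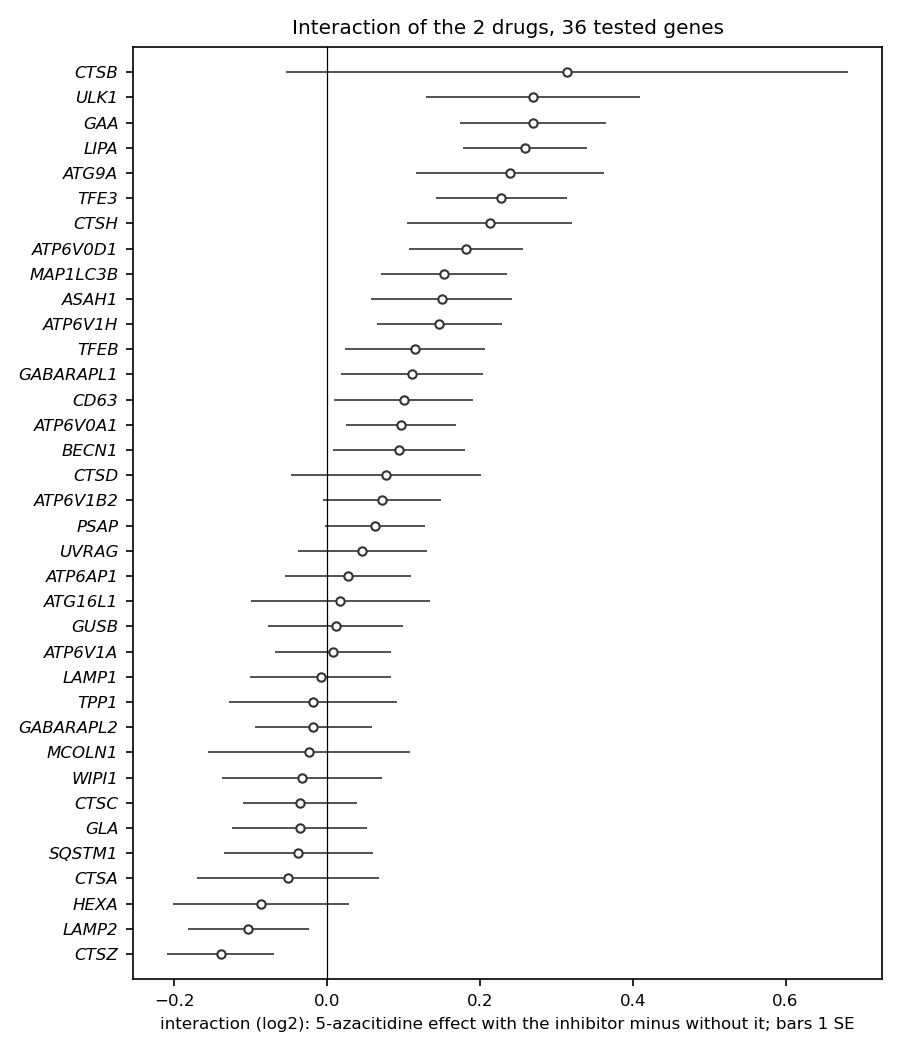
Interaction of the drugs for each of the 36 tested genes, on the log2 scale, with bars of 1 SE. The point of LIPA lies at 0.26, and no gene passed an adjusted p under 0.05.

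Other genes of the pathway, from 9 lists chosen by function, were counted in the same fits; 146 of 159 were tested. With both drugs 42.5% were higher and 21.9% lower (62 and 32 genes), beside 29.6% and 27.5% of all tested genes. With the inhibitor 30.1% were higher and 20.5% lower (44 and 30 genes), near the 26.4% and 24.9% of all tested genes. With 5-azacitidine 10.3% were higher and 3.42% lower (15 and 5 genes), beside 4.31% and 4.75%. Among all tested genes of 10 CPM or more, 22.9% were higher and 46.7% lower with both drugs, and 20.1% and 43.7% with the inhibitor. For 5-azacitidine these shares were 5.55% and 8.79%. The lists themselves were not cut at that level. By list, with both drugs, 21 of 29 other lysosomal hydrolases rose and 3 fell, and 6 of 7 other proteases rose and 0 fell. Of 23 other genes of the lysosomal membrane and sorting 9 rose and 7 fell, and of 13 other V-ATPase subunits 3 rose and 2 fell. Of 20 regulators of TFEB and TFE3 9 rose and 4 fell, and of 13 other autophagy receptors 4 rose and 1 fell. Of 17 other genes of autophagy initiation 4 rose and 8 fell, of 10 of ATG8 conjugation 2 rose and 4 fell, and of 14 of autophagosome fusion 4 rose and 3 fell. Differences between the lists were not tested. The genes named here have the smallest adjusted p of their lists. PRCP, a lysosomal peptidase, averaged 98.3 ± 1.33 CPM with both drugs, 80.3 ± 3.60 with the inhibitor, 46.7 ± 0.901 with 5-azacitidine and 34.6 ± 1.94 in vehicle. GM2A, the cofactor for ganglioside breakdown, averaged 518 ± 24.6 CPM with both drugs, 432 ± 12.6 with the inhibitor, 321 ± 1.24 with 5-azacitidine and 271 ± 3.18 in vehicle. LAPTM5, a lysosomal membrane protein of blood cells, averaged 308 ± 11.8 CPM with both drugs and 66.0 ± 5.26 CPM in vehicle, a log2 change of 2.23 ± 0.06. RRAGD, a GTPase that helps hold TFEB at the lysosome, rose by 1.27 ± 0.07 on the log2 scale with both drugs. OPTN, a cargo receptor, rose by 3.49 ± 0.17, at 8.53, 7.51 and 7.95 CPM with both drugs against 0.607, 0.859 and 0.665 CPM in vehicle. ATG7, the enzyme that activates ATG8 proteins for conjugation, fell by 0.84 ± 0.08 (adjusted p = 3.7e-10), to 13.5 ± 0.640 CPM with both drugs against 24.3 ± 0.525 CPM in vehicle. Its level was 16.9 ± 1.06 CPM with the inhibitor and 19.0 ± 1.16 CPM with 5-azacitidine. ATP6V0A2, another membrane subunit of the pump, fell by 0.76 ± 0.06, at 41.8 ± 1.51 CPM with both drugs against 70.8 ± 4.77 CPM in vehicle, while its paralogue ATP6V0A1 rose. The 1 called interaction in these lists was that of LGMN, an asparaginyl endopeptidase, at 0.38 ± 0.08 (adjusted p = 0.0242), with 79.7 ± 1.52 CPM with both drugs, 69.2 ± 1.49 with the inhibitor, 44.1 ± 0.917 with 5-azacitidine and 49.3 ± 2.77 in vehicle.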

How the data were processed

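Poly(A) RNA was sequenced in 12 libraries, 3 in each of 4 groups. Per the labels, Trizol and a column kit gave the RNA, and random primers started reverse transcription. The submitters' processing notes name STAR 2.7.11b as aligner, cutadapt 5.1, FastQC 12.1, bcl2fastq 2.17.1.14 and Subread 2.1.2. The authors deposited expected counts per gene: per the file headers, they come from featureCounts 2.1.1 on the exons of GRCh38 genes (Ensembl release 114), unstranded, with multi-mapping reads counted as fractions and reads on several genes discarded. The header leaves unclear whether reads or read pairs were counted. Values were whole within 1e-06 in 96.9% of cases. Another 4 libraries of the header's 16 are not used here.

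Counts were rounded to whole numbers and fitted with edgeR 4.0.16 in R 4.3.3, after filterByExpr on the groups (17869 genes kept, holding 99.93% of counts) and TMM scaling (factors 0.966 to 1.03). A single quasi-likelihood fit held all 12 libraries and no covariate. Tests were two-sided, p-values were adjusted by Benjamini-Hochberg across every gene of a comparison, and an adjusted p under 0.05 made a call. Intervals of 95% use t on 8 degrees of freedom, fewer than edgeR's moderated test uses. The fit was tested on simulated data. Of changes of 1.25-fold put in, 34 to 48% were recovered between groups and 16% for the interaction. At 4-fold these were 92 to 98% and 88%. The changed genes were drawn from all tested genes at any level, 50 at each size, and 128 to 155 genes were called. Recovery for the genes of this set, or with as many genes changed as in the data, was not computed. Alternatives were DESeq2 1.42.0, limma voom (limma 3.58.1), other filters and scalings, a replicate block and leaving out libraries. The genes and lists were chosen with earlier results of these data known. Every one of the 39 genes is named, and from each other list the genes of smallest adjusted p may be named. Of the 39 genes, 7 share at least 20% of their exon length with other genes.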

Additional observations from a re-analysis of the deposited data

How the results depend on the processing

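None of the 72 calls of these genes changed direction under the alternatives run, while 57 of the 144 values that were not called changed sign under some alternative. Over 22 alternatives, 4552 gene values kept their side of the threshold, 105 lost and 52 gained a call. The calls kept under every alternative were 12 of 21 with the inhibitor, 2 of 5 with 5-azacitidine, 18 of 20 with both drugs, 13 of 19 for both drugs against 5-azacitidine and 3 of 7 for both drugs against the inhibitor. A filter of 5 CPM in at least 3 libraries gave 4 lower genes with the inhibitor and 2 lower for both drugs against 5-azacitidine. The set's median log2 change under it was 0.16 with both drugs, 0.07 with the inhibitor and 0.15 for both drugs against 5-azacitidine. With the filter used in the report these were 0.11, 0.01 and 0.08. Of the 36 genes 35 were tested under it, and 10382 genes in all. The values of these 35 genes shifted upward by a median of 0.0811, 0.0747 and 0.0706 in the same comparisons. The part of this shift in the lost lower calls was not tested. DESeq2 gave 1 lower gene with 5-azacitidine. With no filter on low counts the calls of HEXA with both drugs and with the inhibitor, ATG9A with the inhibitor and LAMP2 with 5-azacitidine were lost (adjusted p = 0.0545, 0.0546, 0.0621 and 0.0669). Without AZA replicate 1 and HDAC3i_AZA replicate 3 together, 3 were lower for both drugs against 5-azacitidine and 4 higher for both drugs against the inhibitor. Genes with a called interaction over all genes numbered 128, and 314 with no filter, 204 with the stricter filter, 388 by DESeq2 and 227 with the replicate block by library name; the causes were not tested.

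Leaving out 1 library gave 10 to 14 higher and 5 to 8 lower genes with the inhibitor, 2 to 6 and 0 to 1 with 5-azacitidine, 16 to 18 and 3 to 4 with both drugs, 11 to 14 and 5 to 8 for both drugs against 5-azacitidine, and 3 to 7 and 0 for both drugs against the inhibitor. Called over all genes were 8233 to 9520 with the inhibitor, 1017 to 1980 with 5-azacitidine, 9538 to 10462 with both drugs, 8915 to 9772 for both drugs against 5-azacitidine, 690 to 1848 for both drugs against the inhibitor and 35 to 689 for the interaction, with the 689 reached without HDAC3i_AZA replicate 2. No pairing by replicate number was seen: over 18 pairs of same-numbered libraries the correlation of deviations ran from -0.0591 to 0.0665. Such values cannot tell whether same-numbered libraries were prepared together. The block by title number lost 1 gene call and gained 0, that of ATP6V0D1 for both drugs against the inhibitor (adjusted p = 0.0501). That by library name lost 3 and gained 4; the lost ones were GLA and LAMP2 with 5-azacitidine (adjusted p = 0.0581 and 0.0686) and ATP6V0D1 for both drugs against the inhibitor (0.0593). The fit of only the groups compared could not be run for the interaction.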
